A study of Mus musculus with 14 samples.

Results

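The genes described here are Ddit3, which encodes the transcription factor CHOP, and 9 genes that act with it in the integrated stress response: Atf4, Atf3, Trib3, Chac1, Asns, Sesn2, Ppp1r15a, Eif2ak3 and Slc7a11. They were chosen by name, and their probes were found through the transcript that each array probe carries as its annotation. All 10 were present, on 13 of the 41174 probes of the array. They make up 10 of the 32476 genes tested. Slc7a11 had 3 probes, Trib3 had 2 and each of the others had 1. Every one of the 13 probes was well above background on all 14 arrays, so no gene of the set was lost to the filter on dim probes.

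RNA came from FDCPmix, a mouse bone marrow line of immature blood cells that grows in interleukin 3. All samples were kept in the same maintenance culture, in low-tyrosine medium with horse serum and conditioned medium as the source of interleukin 3, and the labels name no stress treatment. After antibody staining the cells were sorted into Kit+Gr1-Sca1hi (Sca1hi, 3 arrays), Kit+Gr1-Sca1lo (Sca1lo, 3 arrays), Kit-Gr1- (3 arrays) and Gr1+ (3 arrays), and 2 arrays held unfractionated culture. The design text calls the samples biological replicates, and separate cultures are not stated, so p-values measure the spread between these samples. Because all cells come from 1 cell line in growth culture, a fraction is defined by its surface markers alone.

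In the integrated stress response, kinases such as PERK, the product of Eif2ak3, sense unfolded protein, missing amino acids, lack of heme or double-stranded RNA and phosphorylate the initiation factor eIF2. Bulk translation then slows while the mRNA of Atf4 is translated better, and ATF4 switches on genes for amino acid uptake, amino acid synthesis and redox defence. Ddit3 is a later target, and its protein pairs with C/EBP factors, which are themselves regulators of blood cell lineages. Ppp1r15a closes the loop by bringing a phosphatase to eIF2.

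Levels are given as log2 signal relative to the 75th percentile of the same array, so a level of 0 is a probe at that percentile, and levels are compared between arrays for 1 probe at a time. A gene passed the test when limma gave a difference of at least 2-fold and a p that stayed under 0.05 after adjustment over all genes (Benjamini-Hochberg). Of the gate genes, Kit fell by 2.21 ± 0.25 (SE) in Kit-Gr1- against the mean of both Kit+Gr1- fractions (adjusted p = 0.00381), and Ly6c1, a Gr1-family gene, rose by 6.74 ± 1.00 in Gr1+ (adjusted p = 0.00388). Ly6a, which encodes Sca1, measured 2.32 ± 0.50 in Sca1hi against Sca1lo without passing (adjusted p = 1.00), and rose by 4.15 ± 0.43 in Gr1+ (adjusted p = 0.000931). The arrays lay on 4 slides, each with its own scan: slide 1 held replicate 1 of every sorted fraction. Slides 2 and 3 held the later Kit-Gr1- and Gr1+ arrays, 1 Kit+Gr1- array each and 1 unfractionated array each, and slide 4 held replicate 3 of Sca1hi and Sca1lo. On 4 arrays, Sca1hi 3, Sca1lo 3, Gr1+ 3 and unfractionated 1, signals were compressed, with an interquartile range of 1.78 to 3.42 on the log2 scale against 4.17 to 4.92 on the other 10. Both unfractionated arrays correlated with each other at only 0.51, and unfractionated replicate 1 had a median signal of 5180.

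Of the 10 genes, 1 passed the test in at least 1 of the 4 comparisons between sorted fractions. It was Slc7a11, the cystine importer, which was 4.41-fold higher in Gr1+ than in the Kit+Gr1- fractions. For Gr1+ against Kit+Gr1-, 1 of 10 passed, beside 2.00% of all genes tested. There 1 of 10, Slc7a11, had an unadjusted p under 0.05, beside 2734 of all 32476 genes. In Kit-Gr1- against Kit+Gr1-, 0 of 10 passed in limma, beside 0.0677% of all genes. There 0 of 10 had an unadjusted p under 0.05, beside 658 of all 32476 genes. In Kit-Gr1- against Gr1+, 0 of 10 passed, beside 1.59% of all genes. There 1 of 10, Slc7a11, had an unadjusted p under 0.05, beside 2303 of all 32476 genes. In Sca1hi against Sca1lo, 0 of 10 passed, as did 0% of all genes. There 0 of 10 had an unadjusted p under 0.05, beside 55 of all 32476 genes. The comparisons of Gr1+ and of Kit-Gr1- with Kit+Gr1- share their Kit+Gr1- arrays, and the third shares arrays with both.

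The size of the differences was small for most of the set. In Kit-Gr1- against Kit+Gr1- they ran from -0.53 (Atf3) to 0.54 (Slc7a11) on the log2 scale, with a median of 0.06 where that of all genes was -0.25. In Gr1+ against Kit+Gr1- they ran from -0.54 (Ppp1r15a) to 2.14 (Slc7a11), with a median of -0.05 where that of all genes was -0.04. In Kit-Gr1- against Gr1+ they ran from -1.61 (Slc7a11) to 0.50 (Trib3), with a median of -0.01 where that of all genes was -0.22. In Sca1hi against Sca1lo they ran from -0.28 (Asns) to 0.47 (Ppp1r15a), with a median of -0.01 where that of all genes was -0.01. The centre itself moved with the scaling: the all-gene median of Kit-Gr1- against Kit+Gr1- was 0.07 with arrays centred on their medians, 0.00 after quantile normalization and -0.49 in the deposited series values. For Gr1+ against Kit+Gr1- those medians were -0.02, -0.07 and -0.24.

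**Figure D1:**
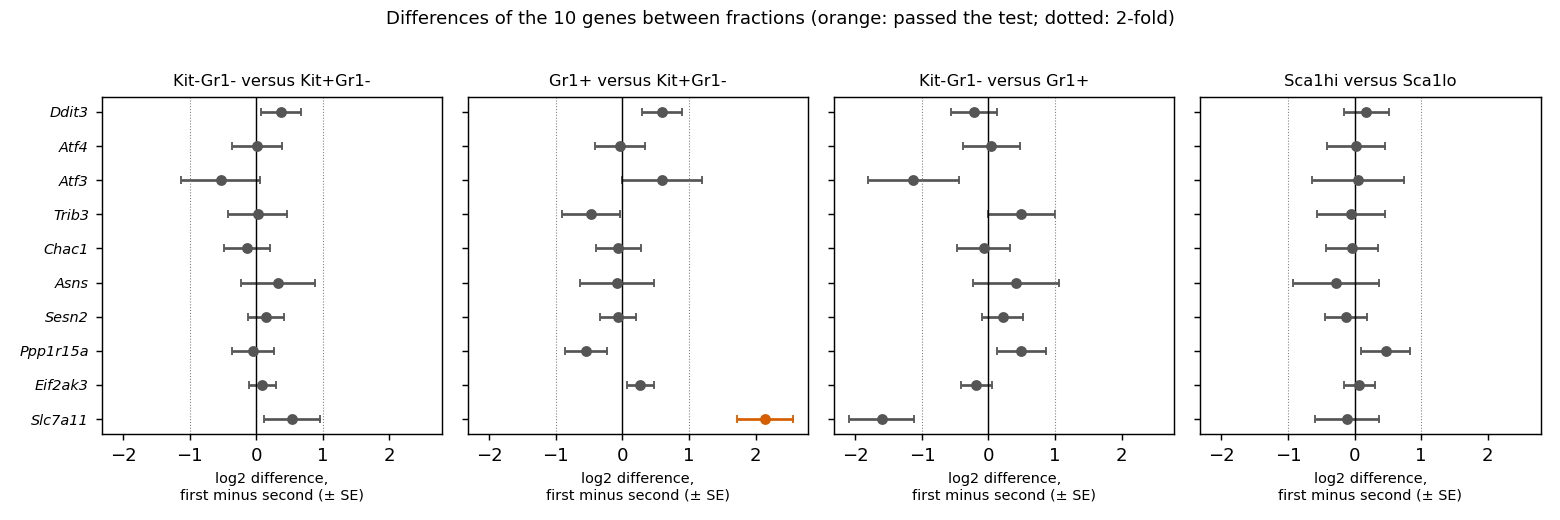
Log2 difference of each of the 10 genes (rows) in 4 comparisons between sorted fractions (panels), first group minus second, with the standard error of the limma fit as the bar; dotted lines mark 2-fold. Slc7a11 in Gr1+ against Kit+Gr1-, at 2.14 ± 0.42, is the single point that passed the test, and most other bars cross or lie near 0.

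ATF4 and its C/EBP partners bind a composite element whose core is TGATGNAA. The promoter windows of the set, from RefSeq on GRCm38.p6 and running from 250 bases before to 50 after each start, were searched for it on both strands (TTNCATCA is the reverse complement). It stood in 5 of the 10 windows, against 3.97% of the 32851 windows in the table. TGATGCAA, a subset of the same motif, stood in 3 of 10 against 0.895%. The stretches of 4 of the genes are printed because the gene that passed the test, Slc7a11, carried 2 matches close together, and because Atf3, Chac1 and Asns differ in where their match lies. Capitals mark the match, and each stretch reads 5′ to 3′ on the strand of the gene.
Slc7a11, chr3:50443644-50443703, minus strand: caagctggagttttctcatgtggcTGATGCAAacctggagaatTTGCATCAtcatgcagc
Atf3, chr1:191183414-191183463, minus strand: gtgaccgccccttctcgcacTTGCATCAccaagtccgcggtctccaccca
Chac1, chr2:119351027-119351076, plus strand: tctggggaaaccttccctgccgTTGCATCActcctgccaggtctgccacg
Asns, chr6:7693210-7693259, minus strand: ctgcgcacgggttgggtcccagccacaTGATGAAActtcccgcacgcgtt
Relative to the start, both Slc7a11 matches lay at -66 to -59 and -47 to -40 and faced opposite ways. The Atf3 match lay at -110 to -103, that of Chac1 at -193 to -186 and that of Asns at -23 to -16. Trib3 had its match after the start, at 15 to 22. The windows of Ddit3, Atf4, Sesn2, Ppp1r15a and Eif2ak3 held no such letters, which says nothing of elements outside them. A match is a description of letters and no evidence of binding.

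Ddit3 did not pass in any comparison. On the Sca1hi arrays its level was 1.07, 0.72 and 0.66 (replicates 1 to 3), and on the Sca1lo arrays 1.13, 0.41 and 0.38. On the Kit-Gr1- arrays it was 1.46, 0.83 and 1.01, on the Gr1+ arrays 2.12, 0.80 and 1.05, and on the unfractionated arrays 1.14 and 1.34. Replicate 1 was the highest of its fraction each time, and the Kit-Gr1- and Gr1+ arrays overlapped both Kit+Gr1- fractions. By group mean the order ran from Sca1lo (0.64 ± 0.42, SD, n = 3) through Sca1hi (0.82 ± 0.22, n = 3), Kit-Gr1- (1.1 ± 0.32, n = 3) and unfractionated (1.24 ± 0.14, n = 2) to Gr1+ (1.32 ± 0.70, n = 3). No pair of groups in that order passed the test, neighbours included.

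Against the Kit+Gr1- fractions, Ddit3 measured 0.37 ± 0.30 (SE) in Kit-Gr1- (adjusted p = 0.907) and 0.59 ± 0.30 in Gr1+ (adjusted p = 0.701). Within slides 1, 2 and 3 the first difference was 0.36, 0.42 and 0.29 and the second was 1.02, 0.39 and 0.33. All 6 of these within-slide values were above 0, but on each slide both differences use the same Kit+Gr1- arrays. That comparator was Sca1lo 2 alone on slide 2 and Sca1hi 2 alone on slide 3, where Gr1+ 3 is compressed. The within-slide values of other genes against Kit+Gr1- have the same comparators. When the sorted fractions alone were fitted with slide as a block, the Gr1+ difference was 0.61 with an adjusted p of 0.0229 and stayed under 2-fold. Array weights lowered the differences to 0.01 in Kit-Gr1- and 0.23 in Gr1+, and leaving out Gr1+ replicate 1 lowered the second to 0.20. Between Kit-Gr1- and Gr1+ the difference was -0.22 ± 0.34 (adjusted p = 0.946), and it was 0.18 without Gr1+ replicate 1. Sca1hi and Sca1lo differed by 0.18 ± 0.34 (adjusted p = 1.00).

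**Figure D2:**
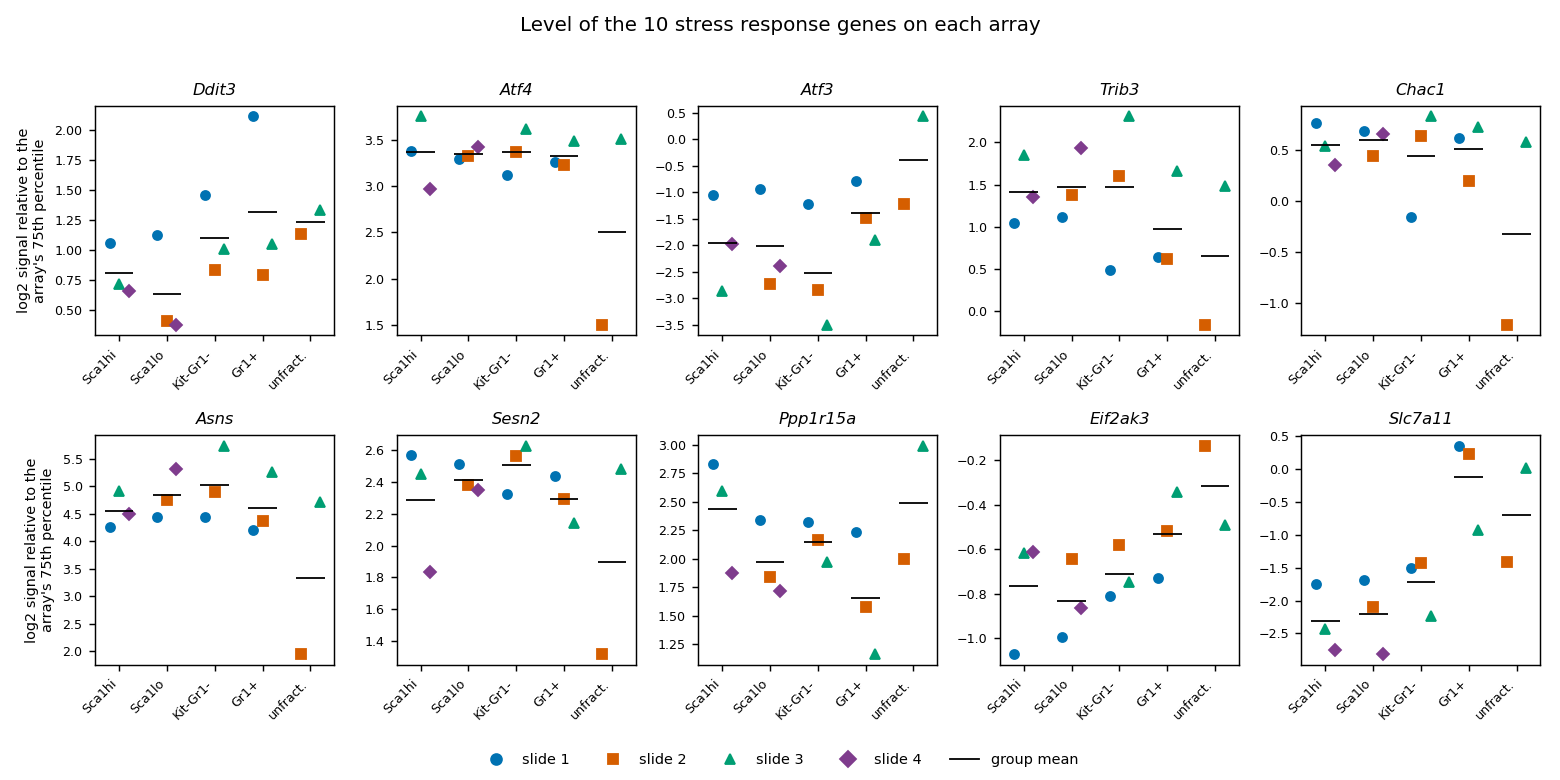
Level of each of the 10 genes (panels, each with its own scale) on every array, as log2 signal relative to the array's 75th percentile, by group; symbols give the slide and bars the group mean. Slc7a11 is higher on all 3 Gr1+ arrays than on any Kit+Gr1- or Kit-Gr1- array, whereas within each sorted fraction the slide 1 array is the highest for Ddit3, Atf3 and Ppp1r15a and the lowest for Asns and Eif2ak3.

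Eif2ak3, the kinase PERK of the endoplasmic reticulum, varied little: its level lay between -1.07 (Sca1hi 1) and -0.34 (Gr1+ 3) on the sorted arrays. The group means ran in the order Sca1lo (-0.84 ± 0.18, SD), Sca1hi (-0.77 ± 0.27), Kit-Gr1- (-0.71 ± 0.12) and Gr1+ (-0.53 ± 0.19), with the fractions overlapping. Gr1+ measured 0.27 ± 0.20 (SE) above Kit+Gr1- and did not pass (adjusted p = 1.00), with 0.30, 0.13 and 0.27 within slides 1 to 3. The other eIF2 kinases were measured too. Eif2ak1, the heme-regulated kinase, measured 0.16 ± 0.19 in Kit-Gr1- and 0.13 ± 0.19 in Gr1+ against Kit+Gr1-. Eif2ak4, the sensor of uncharged tRNA, measured -0.51 ± 0.35 in Gr1+ against Kit+Gr1- and 0.54 ± 0.40 in Kit-Gr1- against Gr1+. Eif2ak2, the kinase activated by double-stranded RNA, measured 0.15 ± 0.43 in Kit-Gr1- against Kit+Gr1- and 0.22 ± 0.50 against Gr1+. Of these 3 kinases, 0 passed in any of the 4 comparisons.

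Ppp1r15a is the stress-induced partner of the eIF2 phosphatase. Its level was 2.83, 2.59 and 1.88 on the Sca1hi arrays and 2.34, 1.84 and 1.72 on the Sca1lo arrays. It was 2.32, 2.16 and 1.97 on the Kit-Gr1- arrays, 2.24, 1.57 and 1.16 on the Gr1+ arrays, and 2.00 and 2.99 on the unfractionated arrays. Replicate 1 was the highest and replicate 3 the lowest in each sorted fraction, and the fractions overlapped. Gr1+ measured -0.54 ± 0.32 (SE) against Kit+Gr1- (adjusted p = 0.921) and was lower within all 3 slides, by -0.35, -0.27 and -1.43. Kit-Gr1- measured 0.49 ± 0.37 against Gr1+, and Sca1hi 0.47 ± 0.37 against Sca1lo, neither of which passed. Among 12 measured genes of eIF2, its exchange factor eIF2B and its phosphatase, 0 passed in any comparison. All 12 lay above 0 in Kit-Gr1- against Kit+Gr1-, with a median of 0.27 that stayed above 0 under all 32 alternatives (0.04 to 0.60). These genes share the same arrays, and the signs were not tested. Eif2s1, which encodes the phosphorylated alpha subunit, measured 0.93 ± 0.51 in Kit-Gr1- against Gr1+ (adjusted p = 0.946).

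Atf4, the factor at the centre of the response, had almost the same mRNA level in each sorted fraction. Its group means were 3.37 ± 0.40 (SD, n = 3) in Sca1hi, 3.35 ± 0.07 in Sca1lo, 3.37 ± 0.25 in Kit-Gr1- and 3.32 ± 0.15 in Gr1+. The differences were 0.01 ± 0.37 (SE) in Kit-Gr1- and -0.03 ± 0.37 in Gr1+ against Kit+Gr1-, and the fraction accounted for 0.833% of its variance over the 12 sorted arrays, where the median gene had 22.0%. ATF4 is controlled mainly by translation, which these arrays do not measure. Unfractionated replicate 1, one of the compressed arrays, stood at 1.50 while every other array lay between 2.97 and 3.76.

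Atf3, a factor that pairs with other bZIP proteins and is induced with Ddit3, was the most variable of the transcription factors. Its level was -1.05, -2.86 and -1.98 on the Sca1hi arrays and -0.93, -2.72 and -2.39 on the Sca1lo arrays. It was -1.22, -2.84 and -3.50 on the Kit-Gr1- arrays, -0.78, -1.49 and -1.90 on the Gr1+ arrays, and -1.22 and 0.44 on the unfractionated arrays. The 4 replicate 1 arrays held the 4 highest values among the sorted arrays, and all fractions overlapped. Kit-Gr1- measured -1.13 ± 0.69 (SE) against Gr1+ (adjusted p = 0.946) and lay lower within slides 1, 2 and 3, by -0.44, -1.35 and -1.59. This difference passed when the sorted fractions alone were fitted with slide as a block (adjusted p = 0.0152). Atf3 measured 0.60 ± 0.59 in Gr1+ and -0.53 ± 0.59 in Kit-Gr1- against Kit+Gr1-. With array weights, which called 2.65% of all genes there, Atf3 was the 1 gene of the set that passed in Kit-Gr1- against Kit+Gr1-.

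CHOP and ATF4 act as dimers with C/EBP and other bZIP factors, of which 17 were measured. Of the 17, 1 passed between Gr1+ and Kit+Gr1-, beside 2.00% of all genes. Cebpd, a C/EBP factor of maturing granulocytes, rose by 5.05 ± 0.74 (adjusted p = 0.00357). Its level was -1.96 to 0.09 on the 6 Kit+Gr1- arrays, -2.08 to -0.25 on the Kit-Gr1- arrays and 3.35 to 4.76 on the Gr1+ arrays. It fell by 5.12 ± 0.86 in Kit-Gr1- against Gr1+ (adjusted p = 0.00800), a call that ended with arrays centred on their medians (adjusted p = 0.0998), without Kit-Gr1- replicate 1 (0.0598) and without Gr1+ replicate 2 (0.0635). Cebpb, which partners CHOP in many cells, measured 1.60 ± 0.65 in Gr1+ against Kit+Gr1- and did not pass (adjusted p = 0.440). Its Gr1+ arrays lay above its Kit+Gr1- arrays without overlap, and it passed with sorted fractions alone, without the compressed arrays and in the deposited series values. In Kit-Gr1- against Kit+Gr1- the 17 had 0 calls, and the largest differences were those of Fos (-1.27 ± 0.75) and Maf (-1.05 ± 0.47).

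Trib3, a pseudokinase induced by ATF4 and CHOP that feeds back on both, had levels of 1.04, 1.85 and 1.35 on the Sca1hi arrays and 1.11, 1.37 and 1.93 on the Sca1lo arrays. It had 0.49, 1.60 and 2.31 on the Kit-Gr1- arrays, 0.64, 0.62 and 1.66 on the Gr1+ arrays, and -0.16 and 1.48 on the unfractionated arrays. Replicate 1 was the lowest in 3 of the 4 sorted fractions. Gr1+ measured -0.47 ± 0.44 (SE) against Kit+Gr1- (adjusted p = 1.00), and -0.44, -0.75 and -0.20 within slides 1 to 3. The second Trib3 probe gave -0.24 ± 0.35 for the same comparison, and 0 of 2 probes passed in any comparison.

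Asns, which makes asparagine and is a classic ATF4 target, had levels of 4.25, 4.90 and 4.49 on the Sca1hi arrays and 4.43, 4.75 and 5.31 on the Sca1lo arrays. It had 4.43, 4.88 and 5.73 on the Kit-Gr1- arrays, 4.20, 4.37 and 5.25 on the Gr1+ arrays, and 1.94 and 4.71 on the unfractionated arrays. Replicate 1 was the lowest of each sorted fraction, and all fractions overlapped. The differences were 0.33 ± 0.56 (SE) in Kit-Gr1- and -0.08 ± 0.56 in Gr1+ against Kit+Gr1-. Asns was higher in Kit-Gr1- than in Gr1+ within slides 1, 2 and 3, by 0.23, 0.51 and 0.48. It did not pass in the whole limma fit (0.41 ± 0.64, adjusted p = 0.946). The SE of that fit takes in the unfractionated arrays, where the SD of Asns was 1.96 (n = 2), against 0.33 to 0.66 in the sorted fractions.

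By largest log2 difference, Chac1 and Sesn2 differed least between fractions among the targets. The share of variance by fraction over the sorted arrays gave another order. It was 4.58% for Chac1, 14.6% for Trib3, 16.5% for Asns and 19.3% for Sesn2. Chac1, which degrades glutathione and is induced by ATF4, lay between 0.20 and 0.83 on 11 of the 12 sorted arrays and at -0.15 on Kit-Gr1- 1. It differed by -0.13 ± 0.34 (SE) in Kit-Gr1- and -0.06 ± 0.34 in Gr1+ against Kit+Gr1-. Sesn2, a sestrin that restrains mTORC1 when leucine is short, lay between 1.84 and 2.63 on the sorted arrays. It differed by 0.15 ± 0.27 and -0.06 ± 0.27 in the same comparisons, and its lowest sorted array was the compressed Sca1hi 3.

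Slc7a11 encodes the light chain of the exchanger that imports cystine for glutathione in return for glutamate. Its main probe had levels of -1.75, -2.44 and -2.75 on the Sca1hi arrays and -1.68, -2.09 and -2.82 on the Sca1lo arrays. It had -1.50, -1.43 and -2.23 on the Kit-Gr1- arrays, 0.36, 0.23 and -0.93 on the Gr1+ arrays, and -1.42 and 0.03 on the unfractionated arrays. All 3 Gr1+ arrays lay above every Kit+Gr1- and Kit-Gr1- array, the lowest being the compressed Gr1+ 3. It was the 1 of 10 genes whose Gr1+ and Kit+Gr1- arrays did not overlap, beside 9.74% of all genes, and the 1 of 10 for Kit-Gr1- and Gr1+, beside 27.1%. For Kit-Gr1- and Kit+Gr1- it was 0 of 10 beside 5.79%, and for Sca1hi and Sca1lo 0 of 10 beside 3.09%. By mean the order was Sca1hi (-2.31 ± 0.51, SD, n = 3), Sca1lo (-2.20 ± 0.57), Kit-Gr1- (-1.72 ± 0.44), unfractionated (-0.70 ± 1.02, n = 2) and Gr1+ (-0.11 ± 0.71), and neighbours in it did not pass.

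Slc7a11 rose in Gr1+ against Kit+Gr1- by 2.14 ± 0.42 (SE, adjusted p = 0.0164). Slide 1 alone gave 2.08, slide 2 gave 2.32 and slide 3 gave 1.51, and a fit that took the slide as a block gave 1.97 (adjusted p = 0.0401). Because these are bulk samples, more cells with the transcript and more transcript per cell cannot be told apart. The call ended, at a similar size, with arrays centred on their medians (2.16, adjusted p = 0.281), after quantile normalization (2.38, 0.185) and in the deposited series values (1.94, 0.339). It also ended without Gr1+ replicate 1 (1.91, 0.108) or Gr1+ replicate 2 (1.97, 0.157), and against Sca1hi alone (2.20, 0.0512) or Sca1lo alone (2.08, 0.0576).

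The other Slc7a11 probes measured the same comparison apart. With every probe tested on its own, A_52_P368057 gave 2.14 ± 0.42 and A_51_P129502 gave 2.12 ± 0.44, and both passed (adjusted p = 0.0166 and 0.0243). The third, A_52_P663446, gave 1.22 ± 0.42 and did not pass (adjusted p = 0.253). On all 3 probes the Gr1+ arrays lay above the 6 Kit+Gr1- arrays: the third probe ran from -2.87 to -1.92 in Gr1+ and from -4.09 to -2.99 in Kit+Gr1-.

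**Figure D3:**
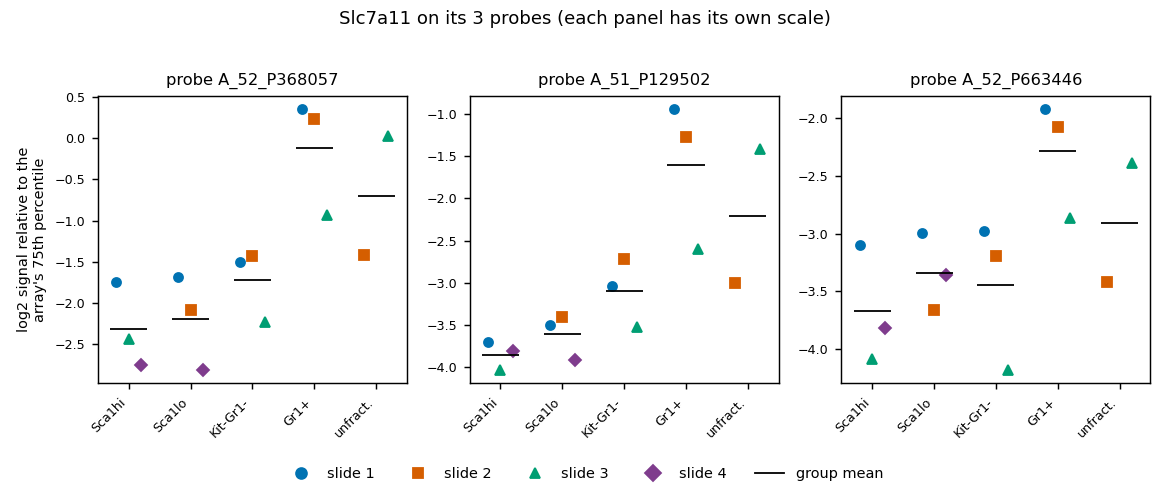
Level of Slc7a11 on each array by its 3 probes (panels, each with its own scale), as log2 signal relative to the array's 75th percentile, by group, with slides as symbols and group means as bars. On each probe the 3 Gr1+ arrays lie above the sorted arrays of the other fractions, and Gr1+ 3 on slide 3 is the lowest of the 3.

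Kit-Gr1- cells had less Slc7a11 than Gr1+ by -1.61 ± 0.48 (SE), with -1.86, -1.66 and -1.30 within slides 1 to 3, and this did not pass in the fit of all arrays (adjusted p = 0.180). It passed with the sorted fractions alone (adjusted p = 0.0385), without the compressed arrays (-2.01, adjusted p = 0.00335) and with array weights (-1.68, adjusted p = 0.000556). Leaving out either unfractionated array had the same effect (adjusted p = 0.0364 without replicate 1 and 0.0445 without replicate 2). The heavy chain of the exchanger, Slc3a2, measured -0.09 ± 0.65 in Gr1+ against Kit+Gr1-, at levels of 4.97 to 5.51 on the Gr1+ arrays and 4.48 to 5.61 on the Kit+Gr1- arrays.

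Markers of mature blood cells moved with the same arrays. In Gr1+ against Kit+Gr1-, 7 of 10 neutrophil, 4 of 4 eosinophil and 2 of 4 macrophage genes rose. So did 1 of 7 genes of mast cells and basophils and 0 of 4 each of lymphoid and stromal cells, beside 1.38% of all genes. The summed linear level of the neutrophil list, each gene relative to the array's 75th percentile, was 1115 to 1713 on the Gr1+ arrays and 26.6 to 190.8 on the Kit+Gr1- arrays. That of the eosinophil list was 108.0 to 282.9 on Gr1+ and 0.365 to 3.16 on Kit+Gr1-, and that of the macrophage list 22.3 to 32.9 and 1.27 to 2.15. The macrophage gene Mrc1 was above background on 2 of 3 Gr1+ arrays and 1 of 6 Kit+Gr1- arrays. Of the progenitor genes Kit, Cd34 and Ly6a, 1 of 3 rose in Gr1+, Ly6a, and 0 fell. Their sum was 14.7 to 18.0 on Gr1+, 9.33 to 13.5 on Kit+Gr1- and 2.06 to 4.82 on Kit-Gr1-. The part of these cell types in the Slc7a11 difference was not tested. In Kit-Gr1-, 5 of 9 erythroid genes rose, beside 0.0677% of all genes called there in either direction. The erythroid sum was 26.1 to 48.2 against 2.77 to 5.99 on the Kit+Gr1- arrays. The mast cell and basophil sum was 123.1 to 287.8 on Kit-Gr1-, 195.9 to 425.1 on Gr1+ and 64.4 to 181.4 on Kit+Gr1-. Of the 7 genes in that list, 0 rose in Kit-Gr1-. Slc7a11 measured 0.54 ± 0.42 in Kit-Gr1- against Kit+Gr1- (adjusted p = 0.907).

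The wider response was read from 97 measured genes of 106 listed in 8 groups, with the 10 genes left out. In Gr1+ against Kit+Gr1-, 2 of the 97 rose and 0 fell, beside 1.38% and 0.625% of all genes. Besides Cebpd the second was Gadd45a, a DNA damage and stress gene, at 1.63 ± 0.27 (adjusted p = 0.00675): its level was 0.06 to 0.90 on the Kit+Gr1- arrays, 1.20 to 1.39 on the Kit-Gr1- arrays and 1.56 to 2.44 on the Gr1+ arrays. The Gadd45a call ended with median centring (adjusted p = 0.413), quantile normalization (0.0536), the deposited series values (0.268) and without Gr1+ replicate 2 (0.0871). In Gr1+ against Kit+Gr1-, 15 of 97 had an unadjusted limma p under 0.05, beside 2734 of all 32476 genes. In Kit-Gr1- against Kit+Gr1-, 0 of 97 passed in limma, beside 0.0677% of all genes. There 2 of 97 had an unadjusted p under 0.05, beside 658 of all 32476 genes. In Kit-Gr1- against Gr1+ 1 of 97 passed, Cebpd, beside 1.59% of all genes. There 12 of 97 had an unadjusted p under 0.05, beside 2303 of all 32476 genes. In Sca1hi against Sca1lo 0 of 97 passed, as did 0% of all genes. There 0 of 97 had an unadjusted p under 0.05, beside 55 of all 32476 genes. Of the 97, 77 lay below 0, with a median of -0.19 where that of all genes was -0.01. These genes share the same arrays, and neither the signs nor the counts were tested.

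The number of calls among these 97 depended on which arrays entered the fit, and so did the share of all genes called. In Gr1+ against Kit+Gr1-, 9 of the 97 passed without unfractionated replicate 1 (4.34% of all genes), 9 without unfractionated replicate 2 (4.10%), 9 with sorted fractions alone (4.33%) and 12 without the 4 compressed arrays (6.88%), where the fit of all arrays had 2 (2.00%). In Kit-Gr1- against Gr1+ the counts were 6 (4.13% of all genes), 5 (3.87%), 5 (4.10%) and 13 (6.22%) under the same settings, where the fit of all arrays had 1 (1.59%).

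Most listed genes for amino acid supply, the main programme below ATF4, had differences below 0 in Gr1+, and 0 of them passed in the fit of all arrays. Genes of a group share the same arrays, and so do the alternatives. Counts of signs and group medians are therefore descriptions, and no group was tested. All 11 aminoacyl-tRNA synthetases lay below 0 in Gr1+ against Kit+Gr1-, with a median of -0.57 where that of all genes was -0.04, and the median was between -0.79 and -0.45 under all 32 alternatives. The largest was that of Iars, which charges isoleucine tRNA, at -1.22 ± 0.45 (adjusted p = 0.326). Its level was 3.01, 2.76 and 3.28 on the Gr1+ arrays and 3.64 to 4.54 on the Kit+Gr1- arrays, so that the arrays did not overlap. It passed with sorted fractions alone (adjusted p = 0.00175), without the compressed arrays (-1.46, adjusted p = 0.000502), after quantile normalization (-1.26, 0.00205) and in the deposited series values (-1.41, 0.00120).

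Of 13 enzymes of amino acid and one-carbon metabolism, 12 lay below 0 in the same comparison, with a median of -0.56 (-0.88 to -0.45 over 32 alternatives). Shmt2 and Mthfd2, mitochondrial enzymes of the folate cycle, measured -0.88 ± 0.39 and -0.86 ± 0.43 and did not pass, and both passed without the compressed arrays (-1.20 and -1.13, adjusted p = 0.00245 and 0.00952). Of 8 amino acid transporters 7 lay below 0, with a median of -0.25. Slc1a4, a transporter of alanine, serine and cysteine, measured -1.94 ± 0.51 (adjusted p = 0.0846), with levels of -3.31 to -1.45 on Gr1+ and -1.13 to -0.10 on Kit+Gr1- arrays. It passed with sorted fractions alone (adjusted p = 0.00667) and without Gr1+ replicate 3 (-2.49, adjusted p = 0.0435). Slc7a11, itself an amino acid transporter under ATF4, thus measured 2.14 where 7 of the 8 other transporters lay below 0.

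The same groups were compared between Kit-Gr1- and Gr1+. There all 11 synthetases lay above 0 (median 0.78, 0.61 to 1.08 over 30 alternatives), as did 11 of 13 enzymes (median 0.69) and 6 of 8 transporters (median 0.56), where the median of all genes was -0.22. Iars measured 1.25 ± 0.52 (adjusted p = 0.542), Tars 0.93 ± 0.54 and Aldh18a1, an enzyme of proline synthesis, 0.89 ± 0.31 (adjusted p = 0.330). Against Kit+Gr1-, Kit-Gr1- gave medians of 0.14 for the synthetases, -0.06 for the enzymes and 0.04 for the transporters, and each of these turned sign under at least 1 alternative.

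The XBP1 and ATF6 branches, which raise chaperones of the endoplasmic reticulum in parallel with PERK, were measured by 19 genes. Between Gr1+ and Kit+Gr1-, 18 of 19 lay above 0 with a median of 0.41 (0.19 to 0.60 over 32 alternatives), and 0 passed. Pdia4, a protein disulfide isomerase, measured 1.36 ± 0.35 (adjusted p = 0.0736), with levels of 1.49 to 2.08 on the Gr1+ arrays and 0.07 to 0.72 on the Kit+Gr1- arrays, which did not overlap. It passed with the sorted fractions alone (adjusted p = 0.00370), as did Edem1, which marks misfolded glycoproteins for degradation (1.18 ± 0.50, adjusted p = 0.484 in all arrays and 0.00292 in sorted fractions). In Kit-Gr1- against Kit+Gr1-, 17 of 19 lay above 0 with a median of 0.30 (0.07 to 0.62), led by Creld2 at 0.73 ± 0.63. Among 14 other stress and death targets, Ero1a, an oxidase of the endoplasmic reticulum that CHOP induces, measured 2.59 ± 0.82 in Gr1+ (adjusted p = 0.187) and 1.40 ± 0.82 in Kit-Gr1- against Kit+Gr1-. The Gr1+ arrays of Ero1a lay above its Kit+Gr1- arrays without overlap, and the Gr1+ difference passed with sorted fractions alone, without the compressed arrays and in the deposited series values. The Kit-Gr1- difference passed with array weights (2.17, adjusted p = 0.000707) and under no other alternative run.

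The other genes with the largest differences of their groups did not pass either. Between Kit-Gr1- and Kit+Gr1-, Slc7a5, the carrier of large neutral amino acids, measured 0.71 ± 0.44. The probes of Vldlr, a lipoprotein receptor, and of Cth, which makes cysteine, were well above background on only 4 and 6 of the 14 arrays, and no difference is given for them. Nck1, an adaptor protein tied to the eIF2 phosphatase, measured 0.70 ± 0.52 in Gr1+ against Kit+Gr1-. Between Sca1hi and Sca1lo, Mbtps2, a protease that activates ATF6, measured 0.81 ± 1.34 and Aldh1l2, a mitochondrial folate enzyme, -0.71 ± 0.52.

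**Figure D4:**
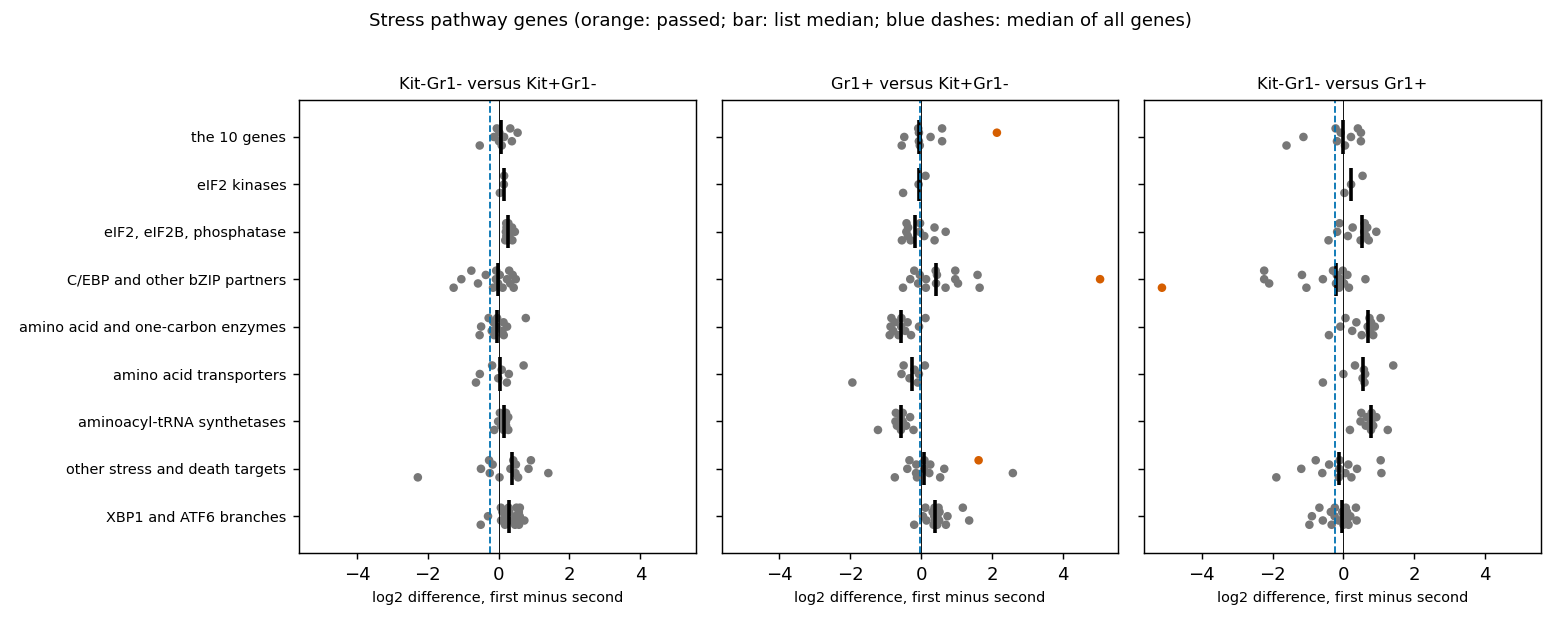
Log2 difference, first group minus second, of each measured gene (points) of the 10 genes and of 8 groups of stress pathway genes (rows) in 3 comparisons (panels); black bars are group medians, the blue dashed line is the median of all genes and orange points passed the test. In Gr1+ against Kit+Gr1- the synthetases centre on -0.57 and the XBP1 and ATF6 genes on 0.41, and the orange points are Slc7a11, Cebpd and Gadd45a.

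Several of the 10 genes were highest or lowest on the same replicate number in all 4 sorted fractions. Ddit3, Atf3 and Ppp1r15a were highest on the replicate 1 array of all 4 sorted fractions, which is 3 of 10 genes beside 6.30% of all genes. The mean gap of replicate 1 over the other replicates was 0.71 for Ddit3 (0.37 to 1.19 over the 4 fractions), 1.46 for Atf3 and 0.57 for Ppp1r15a. Asns and Eif2ak3 were lowest on replicate 1 in all 4, which is 2 of 10 beside 5.09% of all genes, with mean gaps of -0.63 and -0.29. Slc7a11 and Ppp1r15a were lowest on replicate 3 in all 4, beside 2.20% of all genes. On unfractionated replicate 2, Atf3 and Ppp1r15a lay above all 12 sorted arrays, beside 3.50% of all genes. The 4 replicate 1 arrays share slide 1, and 3 of the 4 replicate 3 arrays are compressed. For replicate 1, slide and replicate cannot be told apart.

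Over the 12 sorted arrays the fraction accounted for 33.4% of the variance of Ddit3 and the slide for 62.9%, in separate one-factor fits. The slide share was also the larger for Atf3 (70.3% against 21.9%), Asns (65.7% against 16.5%) and Trib3 (66.8% against 14.6%). The median gene had the same order. Slide 4 held only Kit+Gr1- arrays, so the slide share takes in part of the differences between fractions. Slc7a11 had the reverse, with 78.1% by fraction and 38.9% by slide, and Ppp1r15a had 41.3% and 38.0%. The median gene had 22.0% by fraction and 53.0% by slide.

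Some of the 10 genes varied together from array to array. These correlations describe 12 sorted arrays that share slides, fractions and scaling, and are given with no test. Trib3 and Asns had Pearson's r = 0.89 (Spearman's rho 0.90), 0.90 on the 9 sorted arrays without compressed signal and 0.71 once slide means were removed. Atf4 correlated with Trib3 at 0.68 (rho 0.80), with Asns at 0.64 and with Chac1 at 0.59. Atf3 ran opposite to this group, at -0.84 with Trib3 and -0.81 with Asns. Ddit3 correlated with Slc7a11 at 0.65 (rho 0.66) and with Atf3 at 0.61 (rho 0.67), and with Trib3 at -0.55, Asns at -0.42 and Atf4 at -0.18. With slide means removed, Ddit3 had 0.78 with Slc7a11, and 0.25 with Atf3. The same step turned Ddit3 with Eif2ak3 from -0.16 to 0.69 and Ddit3 with Ppp1r15a from 0.29 to -0.39, and lowered Atf4 with Asns from 0.64 to 0.39. Eif2ak3 and Ppp1r15a, the kinase and the phosphatase partner, had -0.70.

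**Figure D5:**
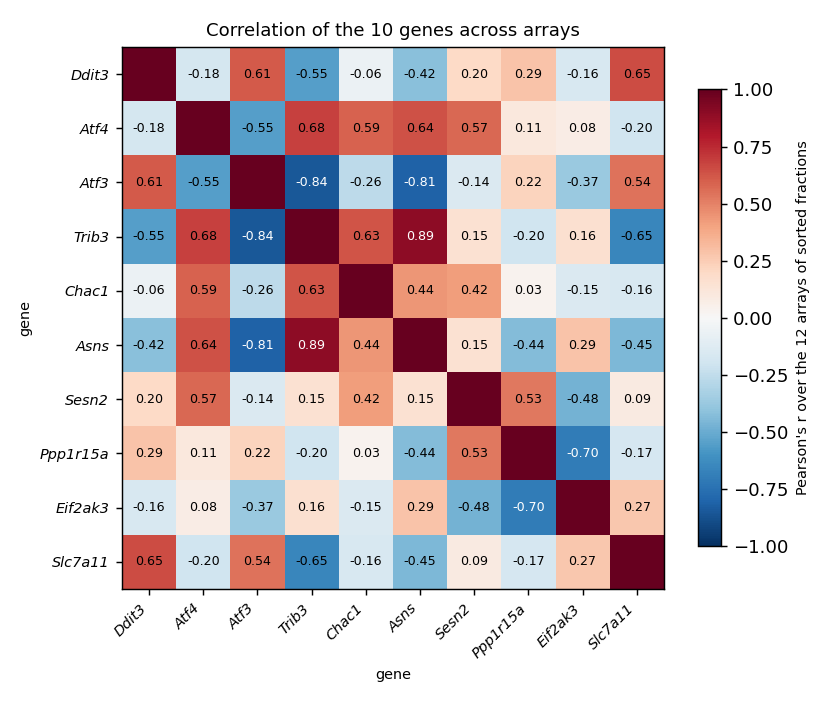
Pearson's r between the levels of the 10 genes (rows and columns) over the 12 arrays of sorted fractions, with red for positive and blue for negative values. Trib3, Asns, Atf4 and Chac1 form a block of positive values, led by 0.89 for Trib3 with Asns, and Atf3 has negative values with all 4.

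Of 16156 genes with a symbol, the 5 whose levels over the 12 sorted arrays were most like those of Ddit3 were Atg2a (r = 0.86), Dusp10 (0.86), Tnfaip3 (0.84), Bcl2l11 (0.83) and Tmem159 (0.82). Bcl2l11, which encodes the cell death protein BIM, was on the list of stress and death targets. On the 9 sorted arrays without compressed signal these values were 0.83, 0.84, 0.91, 0.79 and 0.84, and after quantile normalization 0.89, 0.53, 0.63, 0.75 and 0.67. Slide means were not removed for these 5 genes. Of the other 9 genes of the set, Slc7a11 and Atf3 were the most like Ddit3, at the 99.5th and 99.1st percentile of the 16156 genes. Trib3 was the least, at the 4.19th. Without compressed signal Slc7a11 had 0.56 and Atf3 0.63, and after quantile normalization 0.45 and 0.61.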

How the data were processed

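RNA of 14 samples was hybridised, labelled with Cy3, to 1-colour Agilent mouse arrays. Per the file headers, Feature Extraction 10.1.1.1 (Agilent) read the scans, and the deposited intensity used here is its background-subtracted, detrended processed signal. The authors deposited log2 values too, which equal the log2 of that signal within 5e-09, unscaled between arrays.

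Control spots and spots flagged as outliers were left out, spots of a probe were averaged, and each array's 75th percentile of log2 processed signal was subtracted. Probes well above background on at least 3 arrays were kept. The probe with the highest mean stood for its gene, which gave 32476 genes (16461 with a symbol). Symbols came from RefSeq (GRCm38.p6) through transcript accessions; the headers name another build, so no array coordinates are given. The number of arrays limits the precision. 

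All 14 arrays in 5 groups entered 1 limma 3.58.1 fit (R 4.3.3; lmFit, eBayes with trend; 9 residual and 4.03 prior degrees of freedom). Each SE therefore also takes in the spread between the unfractionated arrays. Tests were two-sided and adjusted over all genes. Kit+Gr1- is the mean of Sca1hi and Sca1lo. Alternatives were other scalings, normexp background on median spot intensities (mean intensities were not used here), filters, probe rules, slide or replicate as a block, array weights, subsets of arrays and each replicate left out. Keeping outlier spots, and sorted fractions with slide as a block, were added after seeing the data. The genes, lists and tests were chosen with earlier results of these data known. Named pathway genes are up to 4 called genes per list and comparison, or else the 2 largest differences, and the 5 genes most correlated with Ddit3; Slc3a2, Cebpb, and other values of these genes outside their own comparison were added after their values were seen. The fit was tested on simulated data. Tables used Python 3.11.15 with pandas 2.3.3, numpy 2.4.6 and matplotlib 3.10.9.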

Additional observations from a re-analysis of the deposited data

Results flagged for a closer look

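Unfractionated culture enters none of the comparisons between sorted fractions, and 2 of the 10 genes stood out there. On unfractionated replicate 2 the level of Atf3 was 0.44 and that of Ppp1r15a 2.99, each above all 12 sorted arrays, whose highest values were -0.78 and 2.83. This position was held by 2 of the 10 genes beside 3.50% of all genes. Unfractionated replicate 1, a compressed array, measured -1.22 and 2.00 for the same genes, inside the sorted range, so the signal rests on 1 array. As groups, unfractionated cells and each sorted fraction did not differ past the threshold for either gene (lowest adjusted p 0.232 for Atf3, against Kit-Gr1-, and 0.510 for Ppp1r15a, against Sca1lo).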

How the results depend on the processing

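Slc7a11 kept its direction in Gr1+ against Kit+Gr1- under every alternative run. Shares of all genes called at the same setting stand in parentheses. The number of the 10 genes called there, 1 (2.00%), became 0 with array medians (0.622%), quantile normalization (1.82%), the deposited series values (1.60%), Sca1hi alone (1.00%) and Sca1lo alone (1.30%), and was 0 to 1 with a replicate left out. In Kit-Gr1- against Gr1+ it was 0 (1.59%), and 1 with sorted fractions alone (4.10%), without the compressed arrays (6.22%) and with array weights (6.11%), 2 (Atf3 and Slc7a11) with sorted fractions and slide as a block (5.37%), and 0 to 1 with a replicate left out. In Kit-Gr1- against Kit+Gr1-, 0 (0.0677%) became 1 of the 10 (Atf3) and 1 of the 97 pathway genes (Ero1a) with array weights (2.65%).

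Pathway calls in Gr1+ against Kit+Gr1-, 2 (2.00%), were 1 with array medians (0.622%), 5 in the series values (1.60%), 9 with sorted fractions (4.33%), 12 without compressed arrays (6.88%), 13 with array weights (6.84%), 11 with sorted fractions and slide as a block (5.62%), and 1 to 9 with a replicate left out (0.351% to 4.34%). In Kit-Gr1- against Gr1+, 1 (1.59%), they were 0 with array medians (0.588%), 2 with quantile normalization (1.28%), 4 in the series values (1.22%), 2 with slide as a block (2.11%), 5 with sorted fractions (4.10%), 13 without compressed arrays (6.22%), 12 with array weights (6.11%), 11 with sorted fractions and slide as a block (5.37%), and 0 to 6 with a replicate left out (0.465% to 4.13%). The cause of these changes was not tested. Ddit3 passed in no comparison under any alternative, and in Kit-Gr1- against Gr1+ its difference turned to 0.082 with array medians and ran from -0.48 to 0.18 with a replicate left out. The 42 single-gene results other than those of Ddit3 were genes of the set or named pathway genes whose difference exceeded its SE. Smaller differences, which turn sign more easily, were left out beforehand, so few reversals could occur. Of 724 values under alternatives other than leaving out 1 replicate, 667 kept direction and call, 9 lost and 48 gained a call, and 0 reversed. A kept call includes a gene that passed neither time.

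Whether the replicate numbers pair the samples is not stated, and the main fit did not pair them. Deviations of same-numbered sorted arrays correlated between -0.23 and 0.87. Over pairs of arrays from different groups, unfractionated included, the median was 0.27 for the same number and -0.11 for different numbers. For 11 of 12 sorted arrays the mean correlation was highest with arrays of their own number. These values cannot tell pairing from slide or compressed signal. All sorted replicate 1 arrays share slide 1, and Sca1hi 3, Sca1lo 3 and Gr1+ 3 are compressed. Sca1hi 3 and unfractionated 1, compressed arrays of different numbers, had 0.92. Kit-Gr1- 3, which is not compressed, had -0.23 with Sca1hi 3, -0.15 with Sca1lo 3 and 0.04 with Gr1+ 3. Deviations were taken from each group's mean, so values for same and different numbers are not independent. With the replicate block, 1 of the 10 genes (Slc7a11) was called in Gr1+ against Kit+Gr1- (2.44%) and 1 in Kit-Gr1- against Gr1+ (2.06%), and 6 and 2 of the pathway genes. Compressed signal limits 4 of the 14 arrays.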
